A study of Mus musculus with 2 samples.

Results

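The genes described here are Trp53, which encodes the transcription factor p53, the genes of its inhibitors Mdm2 and Mdm4, and 7 direct p53 targets: Ccng1, Phlda3, Btg2, Plk2, Zmat3, Trp53inp1 and Perp. They were taken by symbol from a table of read counts with 24061 gene rows, and all 10 were found, each on 1 row. The table compares 2 poly(A) RNA libraries of C57BL/6 mouse embryonic stem cells, 1 from cells labelled Pc4-OE (passages 24 to 37) and 1 from control cells (passages 17 to 23). Pc4 is positive cofactor 4, a single-stranded DNA-binding transcriptional coactivator encoded by Sub1. The Pc4-OE lines carried a lentivirus that also expresses the yellow fluorescent protein Venus, and were started from picked fluorescent colonies. The design text names 3 such lines, but not which of them was sequenced, nor what virus, if any, the control cells had received. Both groups were kept on mouse embryonic fibroblast feeder cells, in medium with serum replacement and leukaemia inhibitory factor. With 1 library per group, the Pc4-OE label and the passage number cannot be told apart, and no difference below has a replicate check or a p-value.

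p53 is a stress-responsive transcription factor that binds DNA as a tetramer and switches on genes for cell cycle arrest, DNA repair and cell death. MDM2 is a ubiquitin ligase that marks p53 for destruction, and because Mdm2 is itself a p53 target the pair forms a negative feedback loop. MDM4 is a relative of MDM2 that binds p53 and blocks its activity as a transcription factor. p53 is controlled mainly through the stability and modification of the protein, so the level of Trp53 RNA does not measure p53 activity. Mouse embryonic stem cells are known for abundant p53.

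A p53 response element is built from a pair of half-sites of 10 letters each. The 250 bases before the RefSeq start of transcription (RefSeq, GRCm38.p6) were searched on the strand of the gene for the consensus half-site, which reads as the same consensus on the other strand. The set was matched with 8 windows of 7 genes. A match was found in 3 of the 8 windows (37.5%), those of Trp53, Mdm2 and Ccng1, against 7.13% of the 32851 windows of all genes and 20.9% of the 43 windows of a list of other p53 targets. A paired site was defined as a pair of half-sites at most 3 bases apart with at most 1 mismatch over 20 letters, the core C and G of each half-site being kept. Such a site stood before Ccng1 and before the alternative, upstream start of Cdkn1a, the gene of the cell cycle inhibitor p21, and in 0.17% of all windows. Of the set, Mdm4 was matched with 2 windows, both without a match, while Zmat3, Trp53inp1 and Perp were not matched. Sites outside these windows, such as in introns, were not looked for. A window without a match thus does not show that the gene lacks a p53 site. Whether p53 binds the matches was not tested. The following stretches of 100 bases show the sites, 5′ to 3′ on the strand of the gene, with p53 half-sites and the paired sites in capitals.
Ccng1 (chr11:40755422-40755521, minus strand): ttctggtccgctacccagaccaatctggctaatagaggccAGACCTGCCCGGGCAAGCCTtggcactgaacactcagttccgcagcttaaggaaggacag
Mdm2 (chr10:117710890-117710989, minus strand): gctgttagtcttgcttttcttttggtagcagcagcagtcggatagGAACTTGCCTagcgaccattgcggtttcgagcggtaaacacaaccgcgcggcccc
Trp53 (chr11:69580239-69580338, plus strand): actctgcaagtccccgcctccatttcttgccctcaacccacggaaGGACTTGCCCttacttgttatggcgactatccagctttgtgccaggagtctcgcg
Cdkn1a (chr17:29090879-29090978, plus strand): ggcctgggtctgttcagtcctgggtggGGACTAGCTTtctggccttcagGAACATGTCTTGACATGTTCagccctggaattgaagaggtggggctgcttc

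The windows of Btg2 and Plk2 held no half-site. Each held TGACGTCA, the palindromic cAMP response element, which stood in 1.55% of all windows and 4.65% of the 43 windows of other p53 targets. These stretches are shown because Btg2 and Plk2 had the highest ratios of the set, and the element is in capitals. The element was looked for after the sequences had been seen.
Btg2 (chr1:134079268-134079367, minus strand): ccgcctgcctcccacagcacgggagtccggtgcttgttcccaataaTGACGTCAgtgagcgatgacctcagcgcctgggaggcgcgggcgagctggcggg
Plk2 (chr13:110394936-110395035, plus strand): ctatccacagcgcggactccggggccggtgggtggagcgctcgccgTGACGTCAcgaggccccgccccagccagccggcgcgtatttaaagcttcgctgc

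**Figure D1:**
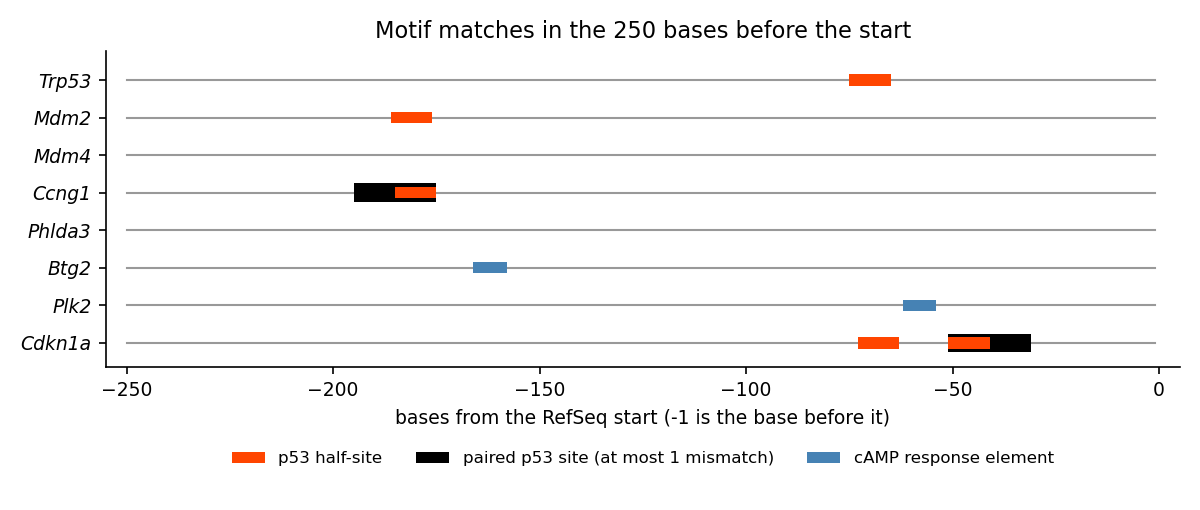
Map of motif matches in the 250 bases before the RefSeq start of each matched gene (horizontal axis, bases from the start; grey line, the window searched). The paired p53 site before Ccng1 lies at -195 to -176 and that before Cdkn1a at -51 to -32; Phlda3 and Mdm4 have no match, and Btg2 and Plk2 have only the cAMP response element.

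The Pc4-OE-labelled library held 10194783 counts and the control-labelled library 10571463. Levels are given as CPM (counts per 1000000) on TMM library sizes (trimmed mean of M values), and ratios are Pc4-OE over control. The 95% intervals cover counting error only, since sequenced reads are not independent molecules and nothing measures the spread between cultures. Sub1, which the label gives as overexpressed, had 2432 counts (235.0 CPM) in the Pc4-OE-labelled library, against 5522 counts (530.3 CPM) in the control-labelled one (log2 ratio -1.17, interval -1.24 to -1.11). That goes against the label. Pc4-OE and control below mean the libraries with these labels, and if the labels had been exchanged every direction below would turn round. Whether they were was not tested. Nor was it tested whether reads of a copy carried by the virus would be counted on the Sub1 row. Both libraries had the defining stem cell RNAs. Pou5f1 was at 571.4 CPM in Pc4-OE and 1092.2 CPM in control, Sox2 at 456.1 and 461.0 CPM, and Nanog at 506.1 and 427.5 CPM. They also held fibroblast RNA. A list of 24 fibroblast markers summed to 18719.5 CPM in Pc4-OE and 7683.0 CPM in control, with 24 of 24 ratios above 1 and none of the markers at 0 in either library. A list of 19 macrophage markers summed to 670.5 CPM in Pc4-OE and 237.6 CPM in control, with 19 of 19 ratios above 1 and none at 0. In RNA from a whole culture, fewer cells of a type and less RNA per cell cannot be told apart.

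The RNA of p53 itself was lower in the Pc4-OE-labelled library, while the RNA of both inhibitors and of all 7 targets was higher. Of the 10 genes, 9 had an interval wholly above a ratio of 1 and 1, Trp53, wholly below it. Counting error is small at this depth, and of all measured genes 31.2% had an interval above 1 and 33.1% one below it, or 30.5% and 50% of those with at least 1000 counts. Over all measured genes 49.3% had a ratio above 1, and 39.8% of those with at least 1000 counts. The median log2 ratio of the 10 was 0.67, against -0.01 over all 14213 genes measured (at least 20 counts summed over both libraries) and -0.12 over the 5173 of these with at least 1000 counts. The set held between 1214 and 13659 counts per gene, so all 10 were measured in both libraries. Btg2, Plk2 and Phlda3 met a 2-fold rule (a ratio of at least 2 either way and an interval that excludes 1), and 0 of the 10 were lower by it. By the same rule 11.8% of all measured genes were higher and 4.02% lower. Among genes with at least 1000 counts, 5.93% were higher and 2.3% lower.

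**Figure D2:**
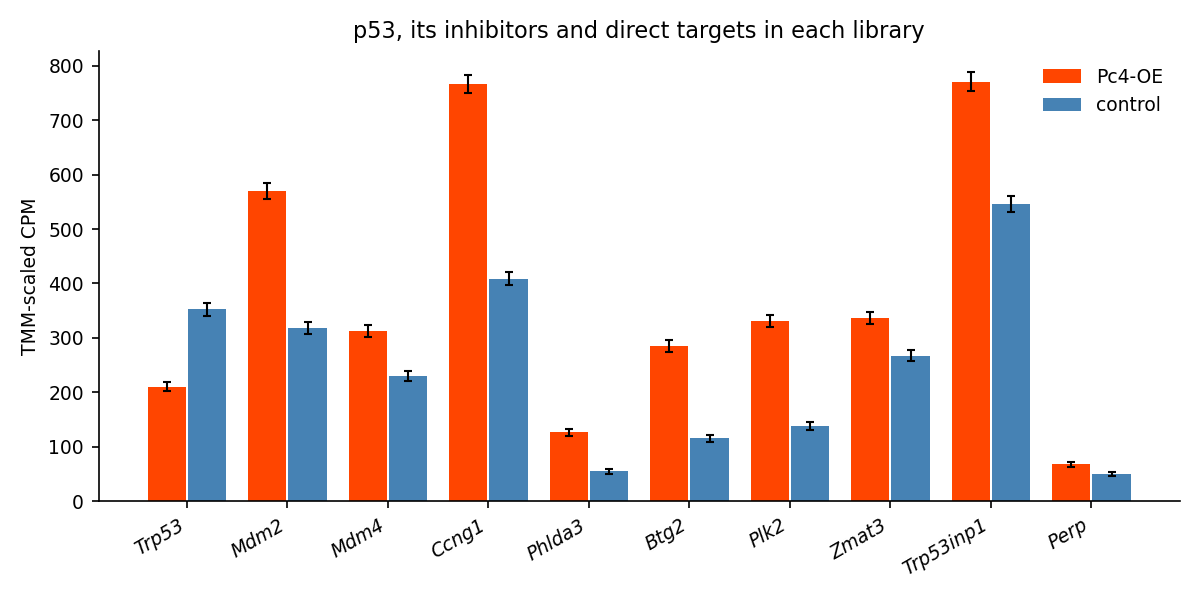
TMM-scaled CPM (vertical axis) of each of the 10 genes in the Pc4-OE library (left bar) and the control library (right bar); error bars are exact 95% Poisson intervals and cover counting error only. Trp53 is lower in Pc4-OE and the other 9 genes are higher, and the intervals of the libraries do not overlap for any of them.

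Trp53 (Entrez 22059, chr11:69580359-69591873, plus strand, GRCm38) had 2176 counts, or 210.2 CPM, in Pc4-OE and 3667 counts, or 352.2 CPM, in control. It was 1.68-fold lower (interval 1.59 to 1.77), which is under the 2-fold rule, and its log2 ratio was -0.74 (-0.82 to -0.67). Of all measured genes, 9.20% had a ratio at or below that of Trp53. The half-site before its start, at -75 to -66, is the one shown above. Trp53 and Mdm4 each have a processed pseudogene in the GENCODE M21 annotation. How reads that also match these copies were counted is not given in the labels.

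The inhibitors came next. Mdm2 (chr10:117688875-117710758, minus strand), the ubiquitin ligase, had 5890 counts, or 569.1 CPM, in Pc4-OE and 3310 counts, or 317.9 CPM, in control. It was 1.79-fold higher (1.72 to 1.87), a log2 ratio of 0.84. Mdm4 (chr1:132959484-133030561, minus strand), its relative without strong ligase activity, had 3229 counts, or 312.0 CPM, in Pc4-OE and 2394 counts, or 229.9 CPM, in control. It was 1.36-fold higher (1.29 to 1.43), a log2 ratio of 0.44. Neither inhibitor met the 2-fold rule. The excess of Mdm2 was larger than that of Mdm4: the ratio of Mdm2 to Mdm4 counts was 1.82 in Pc4-OE and 1.38 in control, a change of 1.32-fold (1.23 to 1.41).

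Ratios of counts within a library do not depend on how the libraries are scaled. The ratio of Mdm2 to Trp53 counts was 2.71 in the Pc4-OE library and 0.90 in the control library, a change of 3.00-fold (2.80 to 3.21). Trp53 thus gave more reads than the gene of its main inhibitor in control, and fewer in Pc4-OE. The ratio to Trp53 was higher in Pc4-OE for all 9 other genes. The change ran from 2.11-fold (1.96 to 2.27) for Zmat3 to 4.13-fold (3.79 to 4.50) for Btg2. For Ccng1 it was 3.14-fold (2.94 to 3.35). All 9 are set against the same Trp53 counts.

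Among the targets that act on the cell cycle, Btg2 and Plk2 met the 2-fold rule and Ccng1 did not. Btg2 (chr1:134075170-134079120, minus strand) encodes an antiproliferative protein that recruits the CCR4-NOT deadenylase. It had 2947 counts, or 284.7 CPM, in Pc4-OE and 1202 counts, or 115.4 CPM, in control, 2.47-fold higher (2.31 to 2.64). Plk2 (chr13:110395046-110400844, plus strand), a polo-like kinase induced by serum as well as by p53, had 3432 counts, or 331.6 CPM, in Pc4-OE and 1440 counts, or 138.3 CPM, in control. It was 2.40-fold higher (2.25 to 2.55). The windows of Btg2 and Plk2 held no half-site. The cAMP response element in them was looked for only after their sequences had been seen. Ccng1 (chr11:40748552-40755311, minus strand), cyclin G1, which brings the phosphatase PP2A to MDM2, had 7932 counts, or 766.4 CPM, in Pc4-OE and 4257 counts, or 408.8 CPM, in control. It was 1.87-fold higher (1.81 to 1.95), under the 2-fold rule. Of the 7 genes of the set with a window, Ccng1 alone had a paired p53 site there.

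Among the targets that act on survival, RNA and adhesion, Phlda3 met the 2-fold rule and the other 3 did not. Phlda3 (chr1:135766119-135769136, plus strand), a pleckstrin homology protein that restrains the kinase AKT, had 1306 counts, or 126.2 CPM, in Pc4-OE and 573 counts, or 55.0 CPM, in control. It was 2.29-fold higher (2.08 to 2.53), and its window held neither motif. Trp53inp1 (chr4:11156431-11174379, plus strand), a stress-induced protein of the nucleus and of autophagosomes, had 7980 counts, or 771.0 CPM, in Pc4-OE and 5679 counts, or 545.4 CPM, in control. It was 1.41-fold higher (1.37 to 1.46). Perp (chr10:18845020-18857073, plus strand), a membrane protein of desmosomes that also takes part in p53-dependent death, was the least counted, with 699 counts, or 67.5 CPM, in Pc4-OE and 515 counts, or 49.5 CPM, in control. It was 1.37-fold higher (1.22 to 1.53). Zmat3 (chr3:32334792-32366014, minus strand), a zinc finger protein that binds RNA, had 3481 counts, or 336.3 CPM, in Pc4-OE and 2783 counts, or 267.3 CPM, in control. Its ratio, 1.26 (1.20 to 1.32), was the nearest to 1 among the 10.

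Of the 9 genes with higher RNA, 5 lay between 1.79-fold and 2.47-fold (Mdm2, Ccng1, Phlda3, Plk2 and Btg2). The other 4 lay between 1.26-fold and 1.41-fold (Zmat3, Mdm4, Perp and Trp53inp1). Within the 5, the interval of Ccng1 lay below that of Phlda3. At a 1.5-fold rule, the 5 were higher and Trp53 lower, as were 18.8% and 13.2% of all measured genes. The intervals of Btg2, Plk2 and Phlda3 overlapped one another. Those of Trp53inp1, Mdm4 and Perp did too. Of all measured genes, 8.09% had a ratio at or above that of Btg2, 13.8% at or above that of Ccng1 and 30.3% at or above that of Zmat3. Mdm4, Btg2 and Phlda3 all lie on chromosome 1, where the median log2 ratio was 0.05 over 650 genes that averaged at least 5 CPM. Trp53 and Ccng1 are on chromosome 11, with a median of -0.05 over 964 such genes, and had log2 ratios of -0.74 and 0.91.

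**Figure D3:**
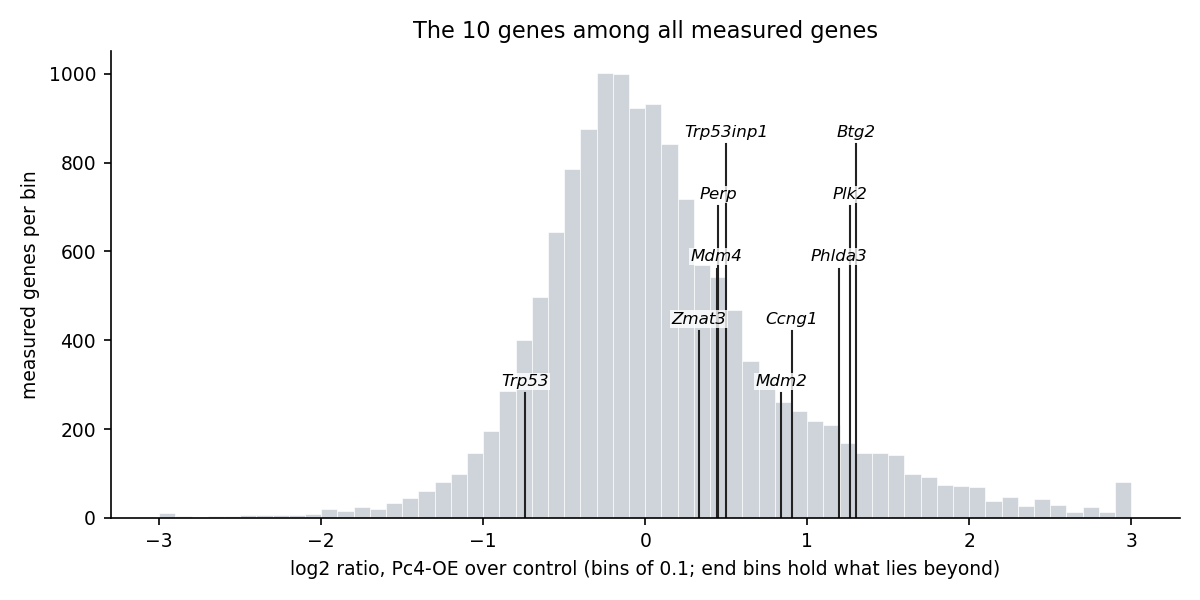
Histogram of the log2 ratio, Pc4-OE over control, of 14213 measured genes (grey bars, genes per bin of 0.1), with the 10 genes marked by black lines whose heights serve only to separate the names. Trp53 lies at -0.74 and the other 9 between 0.33 and 1.30, inside the range of the histogram.

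Levels of different genes were compared per kilobase of exon, with the union of GENCODE M21 exons as length. Ccng1 had the highest level of the set in both libraries, at 218.2 CPM per kilobase in Pc4-OE and 116.4 in control. Trp53 stood seventh of the 10 in Pc4-OE, at 52.0 CPM per kilobase, and second in control, at 87.1. Below Ccng1 in Pc4-OE came Trp53inp1 (119.1), Mdm2 (112.0), Btg2 (103.8), Phlda3 (80.9) and Plk2 (73.8), all above Trp53. In control, Trp53inp1 (84.2) could not be told from Trp53 by counting error, and Mdm2 was at 62.5. Perp, Zmat3 and Mdm4 had the lowest levels in both libraries, with Mdm4 last at 21.1 in Pc4-OE and 15.5 in control. The intervals of Perp and Zmat3 overlapped in control. The lengths include all annotated exons, such as 14.798 kilobases for Mdm4, 11.435 for Zmat3 and 4.045 for Trp53. A level is thus a low estimate where shorter transcripts prevail. The order of the genes holds for these lengths only, and other lengths were not tested.

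A list of 36 other p53 targets was set beside the 10 genes. All 36 were measured, 24 had a ratio above 1 and 12 below it (26 above when centred on chromosome medians), against 49.3% above 1 over all measured genes. The median log2 ratio was 0.37. Of these, 5 met the 2-fold rule upwards (11.8% of all measured genes did) and 1 downwards (4.02%). Cdkn1a, whose stretch with a paired site is shown above, had 4224 counts, or 408.1 CPM, in Pc4-OE and 2101 counts, or 201.8 CPM, in control, 2.02-fold higher (1.92 to 2.13). The others were Fas, a death receptor (154 counts in Pc4-OE and 67 in control, log2 ratio 1.21), Dram1, a lysosomal protein of autophagy (160 and 71 counts, 1.18), Ak1, adenylate kinase 1 (1657 and 765 counts, 1.12), and Tap1, a peptide transporter of antigen presentation (582 and 264 counts, 1.15). Epha2, an ephrin receptor, was the lower one, at 220.6 CPM in Pc4-OE and 461.8 CPM in control (log2 ratio -1.07, interval -1.14 to -0.99).

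Among the targets that trigger mitochondrial cell death, values differed gene by gene. Bbc3, which encodes PUMA, was at 74.5 CPM in Pc4-OE and 41.0 CPM in control (log2 ratio 0.86, interval 0.69 to 1.04). Pmaip1, which encodes NOXA, was at 212.0 CPM in Pc4-OE and 209.4 CPM in control (0.02, -0.07 to 0.10). Bax was at 175.3 CPM in Pc4-OE and 195.2 CPM in control (-0.16, -0.25 to -0.06). None of these met the 2-fold rule.

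**Figure D4:**
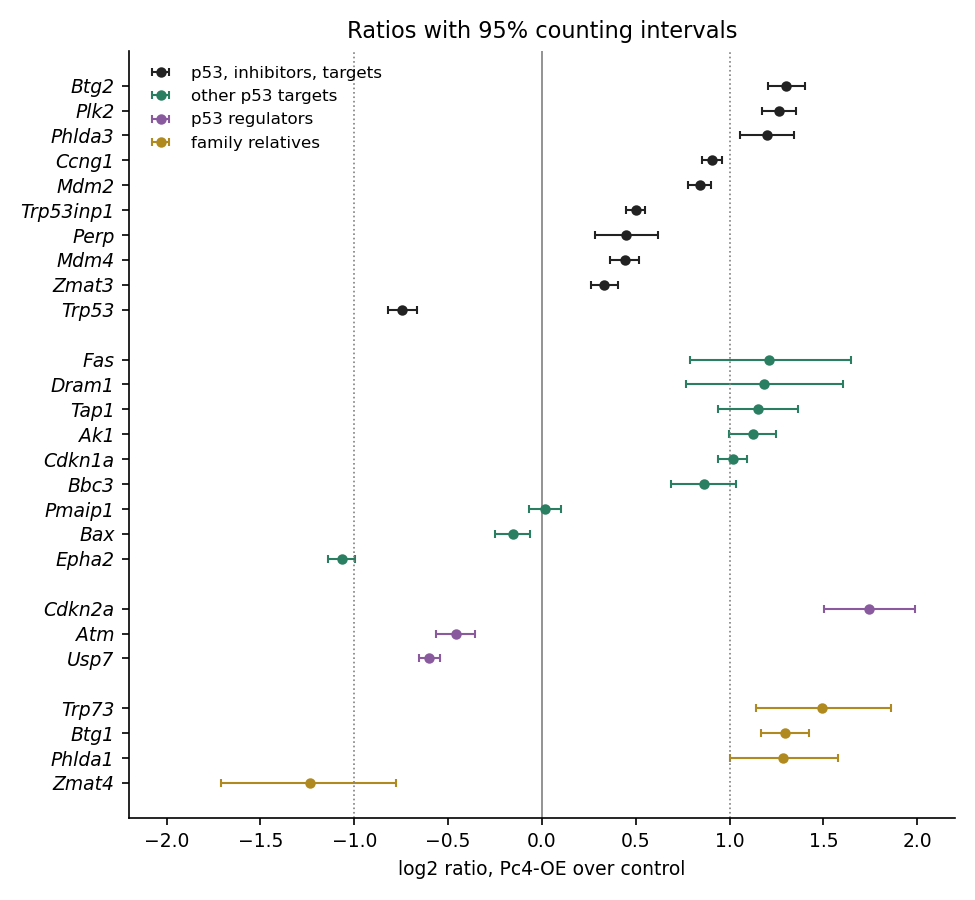
Log2 ratios, Pc4-OE over control (horizontal axis), with 95% counting intervals, for the 10 genes and for named other p53 targets, p53 regulators and relatives; dotted lines mark a 2-fold difference. Btg2, Plk2 and Phlda3 lie beyond the upper dotted line, at 1.30, 1.26 and 1.20, and Trp53 lies on the other side of 0, at -0.74.

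Genes that act on p53 from upstream mostly had ratios below 1. Of 23 regulators, all measured, 20 did (18 when centred on chromosome medians). Over all measured genes 49.3% had a ratio above 1, and 39.8% of those with at least 1000 counts. The median log2 ratio of the regulators was -0.22. The list mixes activators and inhibitors of p53, so this direction does not show whether p53 was more or less active. Of the 23 regulators, 1 met the 2-fold rule upwards and 0 downwards, against 11.8% and 4.02% of all measured genes. The 3 with a ratio above 1 were Ppp1r13b (log2 ratio 0.59, interval 0.32 to 0.87), Ppp1r13l (0.52, 0.27 to 0.77), both of the ASPP family and named after their values were seen, and Cdkn2a, which met the rule. Trp53bp2, also of the ASPP family and likewise named after its value was seen, went the other way (-0.22, -0.41 to -0.03). Cdkn2a had 613 counts, or 59.2 CPM, in Pc4-OE and 184 counts, or 17.7 CPM, in control, 3.35-fold higher (2.84 to 3.97). Its locus encodes the MDM2 inhibitor ARF and the kinase inhibitor p16, whose transcripts share exons, and 1 row cannot separate them. Atm, the kinase that signals DNA breaks to p53, was at 127.6 CPM in Pc4-OE and 175.5 CPM in control (log2 ratio -0.46, -0.56 to -0.36). Usp7, a protease that removes ubiquitin from MDM2 and p53, was at 433.4 CPM in Pc4-OE and 656.9 CPM in control (-0.60, -0.65 to -0.55).

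The closest family relatives of the 10 genes differed from family to family. Of 18 relatives, 15 were measured, 3 met the 2-fold rule upwards and 1 downwards, and their median log2 ratio was 0.21. Of all measured genes, 11.8% met the rule upwards and 4.02% downwards. Btg1, the paralog of Btg2, was at 168.4 CPM in Pc4-OE and 68.6 CPM in control, a log2 ratio of 1.30 (1.17 to 1.42) beside 1.30 for Btg2. Phlda1 had a log2 ratio of 1.29 (349 counts in Pc4-OE and 144 in control) beside 1.20 for Phlda3, while Phlda2 had -0.67. The polo-like kinases Plk1, Plk3 and Plk4 had log2 ratios of -0.34, 0.11 and -0.38, beside 1.26 for Plk2. Plk5, with 114 counts in Pc4-OE and 90 in control, had 0.35 (interval -0.06 to 0.76). Trp73, the p53 relative p73, had 252 counts in Pc4-OE and 90 in control (1.49, 1.14 to 1.86). Trp63 had 3 counts in Pc4-OE and 0 in control, which is too few for a ratio. Zmat4 had 57 counts in Pc4-OE and 135 in control (-1.24), beside 0.33 for Zmat3.

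Further lists were set beside the p53 genes for the other settings in which these are known to change. p53 lowers many genes of mitosis and replication through p21 and the DREAM repressor complex. Of 25 such genes, 24 had a ratio below 1 (22 with library totals), 0 met the 2-fold rule either way, and the median log2 ratio was -0.39, with Kif20a at -0.84, Chek1 at -0.65 and Cdk1 at -0.57. Chek1 is also on the list of regulators, and Plk1 and Plk4 are also among the relatives, so these lists overlap. Of all genes with at least 1000 counts, 39.8% had a ratio above 1 and the median was -0.12, while 5.93% met the rule upwards and 2.3% downwards. Btg2 and Plk2 are also known as immediate-early genes, which growth factors switch on within a short time. Of 17 other immediate-early genes, 7 met the 2-fold rule upwards and 0 downwards, with a median of 0.61. Of all measured genes, 11.8% met the rule upwards and 4.02% downwards. Ier5 had a log2 ratio of 1.63, Atf3 of 1.49, Klf6 of 1.18 and Zfp36 of 1.14, while Egr1 and Ier2, chosen after their values were seen, had -0.31 and -0.40. For Perp, the setting is the epithelial junction. Of 15 junction genes, 14 were measured, with a median of 0.40. Of these, 5 met the rule upwards and 1 downwards, beside the same 11.8% and 4.02% of all measured genes. The desmosomal plaque gene Dsp had a log2 ratio of 2.41, and the claudin genes Cldn7, Cldn4 and Cldn6 had 2.21, 1.74 and 1.18. The lower one was the desmosomal cadherin gene Dsg2, with 199 counts in Pc4-OE and 404 in control (-1.01), a call that is lost with library totals, with 0.5 CPM added and with centring on chromosome medians. Of other junction genes, Jup had a log2 ratio of 0.26, Pkp2 of 0.32, Pkp3 of 0.11 and Cdh1 of 0.24, these and Dsg2 being chosen after their values were seen.

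The log2 ratios of the fibroblast markers ran from 0.67 to 2.54 with a median of 1.29, and those of the macrophage markers from 0.26 to 3.68 with a median of 2.10. The 9 genes with higher RNA lay at 0.33 to 1.30. Among the fibroblast markers, Col1a1 was at 1535.8 CPM in Pc4-OE and 732.5 CPM in control and Vim at 940.3 CPM in Pc4-OE and 442.2 CPM in control. Lox (log2 ratio 2.43), Acta2 (2.54), Mmp2 (2.06) and Tagln (2.14) had some of the highest ratios of that list. Among the macrophage markers, C1qc had 102 counts in Pc4-OE and 8 in control. The 12 stem cell markers summed to 5175.7 CPM in Pc4-OE and 6591.9 CPM in control, with a median log2 ratio of -0.35, the direction of Trp53. The part of fibroblast, macrophage or stem cell RNA in the ratios of the p53 genes was not tested.

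**Figure D5:**
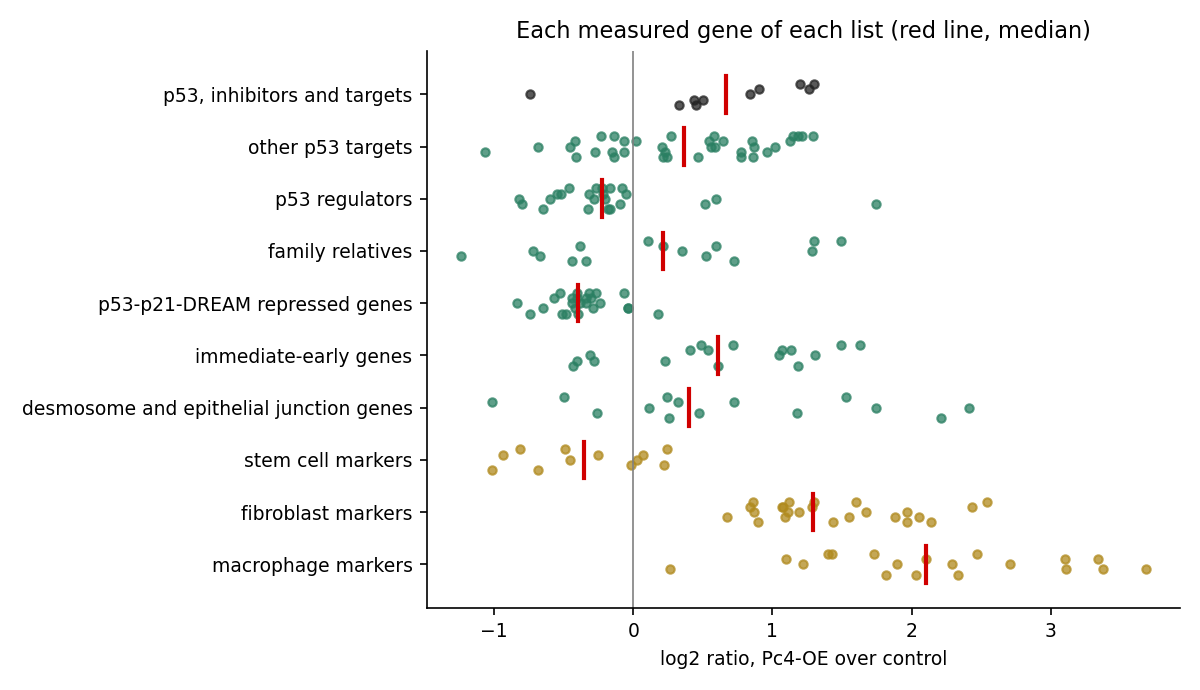
Log2 ratio, Pc4-OE over control (horizontal axis), of each measured gene (points) of each list, with the median of the list as a red line. The medians are 0.67 for the 10 genes, 0.37 for other p53 targets, -0.22 for regulators, -0.39 for genes repressed through p21 and DREAM, 1.29 for fibroblast markers and 2.10 for macrophage markers.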

How the data were processed

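RNA-seq counts of 2 libraries, 1 labelled Pc4-OE and 1 labelled control, were used. The values as deposited by the authors are unnormalized read counts, made with STAR 2.4.1c and featureCounts on build mm10, per the submitters' processing notes; the kit was stranded, per the labels' protocols. What annotation and strand setting were used, and how multi-mapping reads were counted, is not given in the sources used here. Each column was matched to a sample by its title.

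Counts were scaled with TMM (edgeR 4.0.16), and ratios carry exact (Clopper-Pearson) 95% intervals of both counts (SciPy 1.17.1). Levels carry exact Poisson intervals. With 1 library per group no test was run. Genes with at least 20 counts summed were measured. The steps were tested on simulated data. Alternatives were library totals, DESeq2 1.42.0 size factors, upper-quartile scaling, a pseudocount of 0.5 CPM, other count minimums, centring by chromosome and other folds. Positions and exon lengths came from GENCODE M21 (GRCm38, the assembly of mm10), and chromosomes for 99.7% of rows from RefSeq. Tigar was matched by its older symbol.

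The genes and lists were chosen with earlier results of these data known. Named besides the 10 genes are Sub1, members of the lists of other targets, regulators and relatives that met the 2-fold rule, 9 fixed genes of these lists, 5 fixed markers and up to 4 genes of each further list by the interval bound nearest to 0. Phlda2, Plk1, Plk3, Plk4, Plk5, Egr1, Ier2, Ppp1r13b, Ppp1r13l, Trp53bp2, Dsg2, Jup, Pkp2, Pkp3 and Cdh1 were named after their values were seen. A list member is not reported here by name.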

Additional observations from a re-analysis of the deposited data

How the results depend on the processing

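Under 3 other scalings, a pseudocount of 0.5 CPM, no count minimum, a minimum of 100 counts and centring on the chromosome median, 3 of the 10 genes stayed past the 2-fold rule upwards and 0 downwards. The median log2 ratio of the 10 lay between 0.66 and 0.71, and no gene changed direction: Trp53 lay between -0.75 and -0.69. Centring moved Trp53inp1 outside its interval, to 0.56. With a 1.5-fold rule 5 genes were higher and 1 lower (18.8% and 13.2% of all measured genes), and with any fold whose interval excludes 1, 9 were higher and 1 lower (31.2% and 33.1%). Of the other p53 targets, 5 or 6 met the 2-fold rule upwards and 1 downwards under each alternative run. Of the 25 genes repressed through p21 and DREAM, 22 to 24 had a ratio below 1, and of the 23 regulators 18 to 20. Lin28a, the 1 lower stem cell marker, fell short of the rule on unscaled library sizes and when centred, and Dsg2, the 1 lower junction gene, did so in both and with the pseudocount. No paired analysis was possible because there is 1 library per group, and none could be left out. For the 10 genes depth is not the main limit. The limits are the lack of replicates, the passages that differ between the groups, the fibroblast RNA in both libraries, and the Sub1 counts that go against the label.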
